A study of Caenorhabditis elegans with 2 samples.

Results

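The 10 genes described here make acetylcholine signalling work in the nematode Caenorhabditis elegans, and they were chosen by name: unc-3, unc-17, cha-1, cho-1, unc-63, unc-38, unc-29, lev-1, acr-2 and acr-16. They are 10 of 19973 protein-coding genes. At each of them, all peaks with a summit from 5000 bp upstream of the gene start to the gene end were collected. The data are peak lists from chromatin immunoprecipitation and sequencing of MAB-9, a T-box transcription factor, with an antibody against GFP. There was 1 group of 2 biological replicates, made of whole L1 larvae of strain RW12257 that had been starved after bleaching and collected at 6 hours. All larvae carried the insertion st12257, which CRISPR placed in mab-9 on chromosome II and which adds TY1, EGFP and 3xFLAG to the protein. Control libraries were not analysed here. The larvae were used whole, so strong binding in few cells and weak binding in many cannot be told apart, and no peak can be given to a cell type.

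Cholinergic neurons make acetylcholine with the enzyme encoded by cha-1, load it into vesicles with the transporter encoded by unc-17, and take choline back up with the transporter encoded by cho-1. In motor neurons of the nerve cord, UNC-3, a factor of the COE family, switches these genes on together. On the receiving side, acetylcholine opens pentameric receptors: UNC-63, UNC-38, UNC-29 and LEV-1 are subunits of the levamisole receptor of body wall muscle, ACR-16 forms a second muscle receptor, and ACR-2 belongs to a receptor of the motor neurons themselves. MAB-9 is known as one of several repressors that tell motor neuron classes apart.

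Of the 10 genes, 3 had a peak in the authors' conservative list of 1431 peaks: the choline transporter gene cho-1 and the levamisole receptor genes lev-1 and unc-63. Of all protein-coding genes, 11.4% had one in the same kind of window. The windows of the 10 genes were long, with a median of 10840 bp against 7027 bp over all genes, and among the 5270 genes with windows from 8130 to 15767 bp, the range of the 10, the share was 15.1%. The other pooled list, of 1492 peaks, added acr-2, giving 4 of 10 genes against 11.7% of all genes and 15.7% of those with windows in that range. Neither replicate's own thresholded list held a peak at any of the 10 genes, against 7.34% of all genes in replicate 1's list and 7.8% in replicate 2's. Since the genes were chosen with results of these data known, no test was made of these shares. The vesicular transporter gene unc-17, cha-1, unc-3, unc-38, unc-29 and acr-16 had no peak in any thresholded list.

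**Figure D1:**
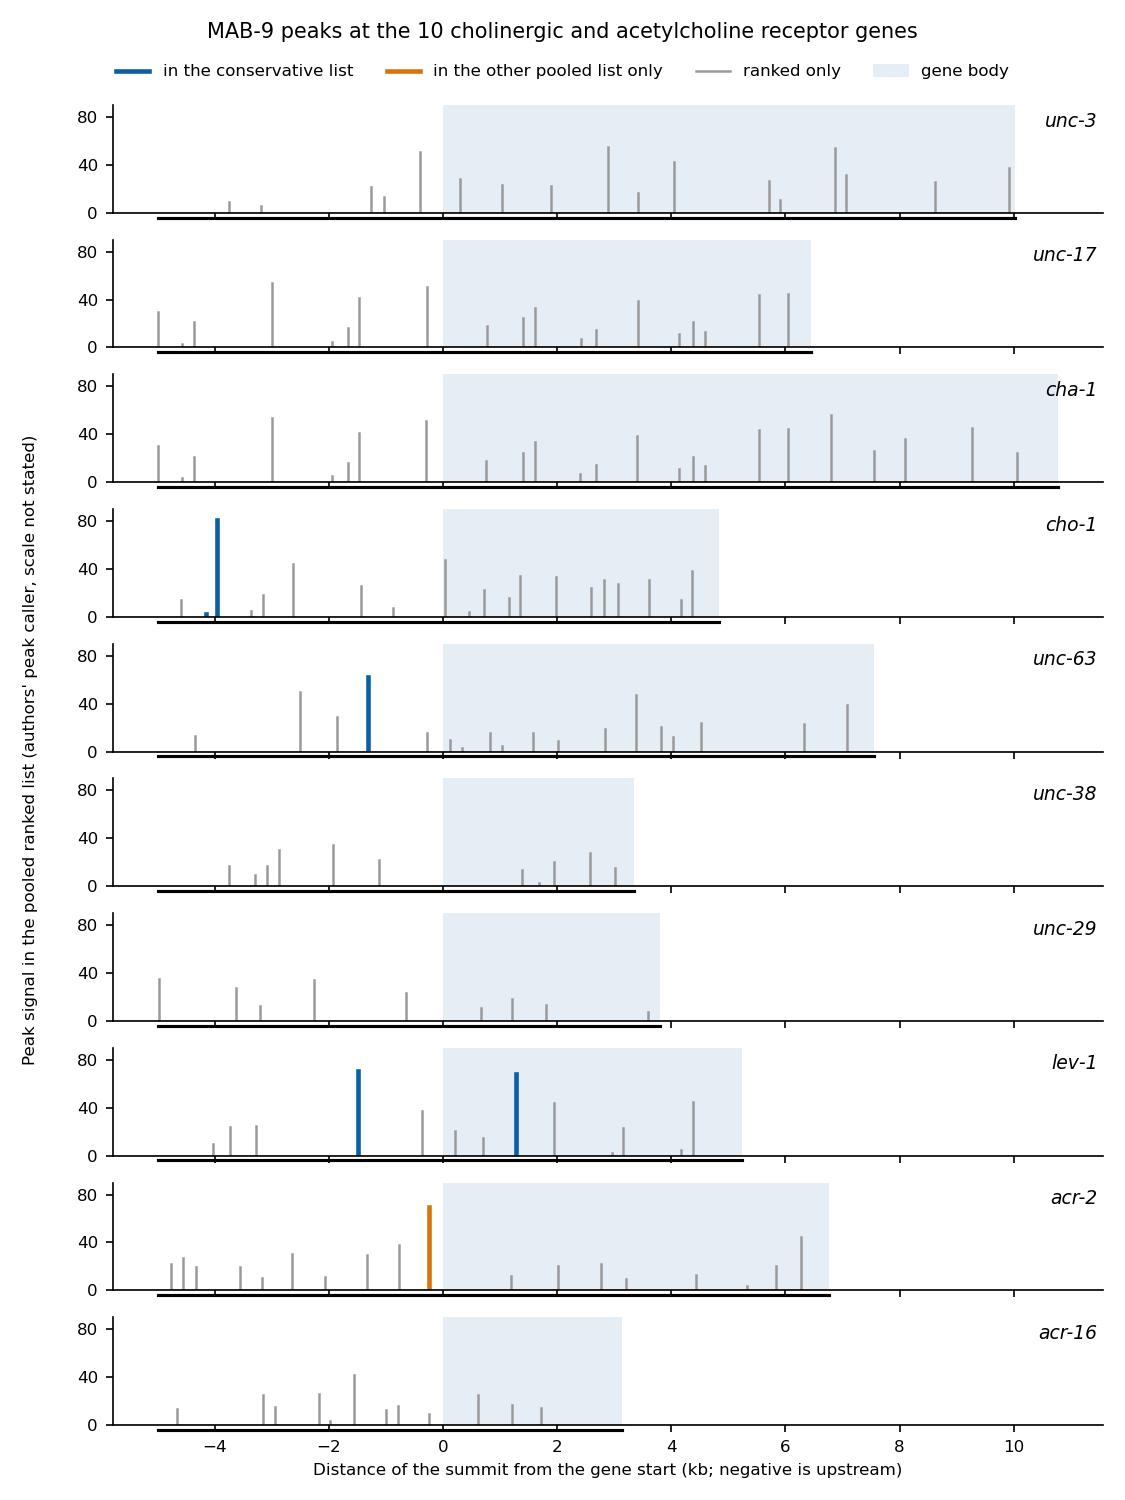
Each panel shows 1 gene, with the distance of a summit from the gene start in kb on the horizontal axis (upstream negative) and its signal in the pooled ranked list on the vertical axis; shading is the gene body and the black line the window searched. The called peaks, in colour, stand at cho-1, unc-63, lev-1 and acr-2, and at the other 6 genes no ranked peak exceeds 55.7.

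The sequences under the called peaks are shown first, because they let the sites be found and compared; each spans the summit and 100 bp to either side, read from the RefSeq assembly of WBcel235 (ce11) on the strand of the gene, with capitals marking GAGAGA or its complement and, at unc-17, also the COE pattern. The peak of unc-63 and the upstream one of lev-1 are given by position only, with their values.
cho-1, 3952 bp upstream, chrIV:13218418-13218618, minus strand: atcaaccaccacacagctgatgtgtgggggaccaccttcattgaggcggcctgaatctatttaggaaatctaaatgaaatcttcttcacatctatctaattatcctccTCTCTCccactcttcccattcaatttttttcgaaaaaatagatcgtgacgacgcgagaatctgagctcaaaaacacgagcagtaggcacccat
lev-1, intron, chrIV:13178014-13178214, minus strand: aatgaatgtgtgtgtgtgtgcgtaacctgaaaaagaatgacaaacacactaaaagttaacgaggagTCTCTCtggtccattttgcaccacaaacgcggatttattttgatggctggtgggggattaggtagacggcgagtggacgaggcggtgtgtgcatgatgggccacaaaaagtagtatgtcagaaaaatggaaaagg
acr-2, 249 bp upstream, chrX:6702200-6702400, plus strand: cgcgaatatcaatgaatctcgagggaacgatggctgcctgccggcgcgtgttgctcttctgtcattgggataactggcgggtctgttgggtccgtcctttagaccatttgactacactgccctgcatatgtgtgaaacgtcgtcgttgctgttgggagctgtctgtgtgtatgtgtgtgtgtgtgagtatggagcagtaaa
unc-17 and cha-1, ranked only, chrIV:3627586-3627786, minus strand: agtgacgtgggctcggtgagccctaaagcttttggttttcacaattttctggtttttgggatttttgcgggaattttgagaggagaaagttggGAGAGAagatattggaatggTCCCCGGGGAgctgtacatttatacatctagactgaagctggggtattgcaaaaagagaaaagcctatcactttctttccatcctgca

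The strongest peak of the 10 genes lay far upstream of cho-1 (WBGene00000501, chromosome IV, 13209730 to 13214566, minus strand). Spanning 13218358 to 13218677 between genes, it was highest 3952 bp before the start of cho-1. The nearest protein-coding start was that of C48D1.5, 3439 bp away, and the noncoding RNA gene C48D1.10 lay within 200 bp of the summit. Its signal, a value of the authors' peak caller on an unstated scale, was 80.6, rank 1005 of 1431. Replicate 1 had a signal of 48.6 there (rank 984 in its ranked list) and replicate 2 one of 27.3 (rank 3925), a ratio of 1.78. Replicate 1 was thus the higher of the pair. A second conservative peak, with its summit 4153 bp upstream, overlapped the first and had a signal of 2.02, the lowest of the 1431. It had no match in either replicate's ranked list. Of the conservative peaks, 25 had a signal under 10, and all 25 overlapped a stronger one.

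Within cho-1 itself, the strongest pooled ranked peak lay in coding sequence 38 bp past the start. Its signal was 47.5 (20.5 in replicate 1 and 21.95 in replicate 2), and it was not called. In each replicate's own ranked list the strongest peak within cho-1 lay elsewhere. It was 3087 bp past the start in replicate 1 (signal 29.1) and 3607 bp past it in replicate 2 (24.6).

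The levamisole receptor gene lev-1 (WBGene00002974, chromosome IV, 13174157 to 13179395, minus strand), whose product is a non-alpha subunit, had both an upstream and an intronic peak. Upstream, the peak spanned 13180725 to 13181044 and ranked 1219 by its signal, 70.5, with 35.8 in replicate 1 and 31.4 in replicate 2. Its summit lay 1490 bp upstream of lev-1 but 62 bp upstream of F58D2.3, the gene with the nearest start. In the intron, the peak spanned 13177954 to 13178273 and ranked 1257 by its signal, 68.6, with 40.9 in replicate 1 and 30.9 in replicate 2. It lay 1281 bp past the gene start and 1206 bp past the nearest annotated transcript start of lev-1, so by nearest start it was the only called peak of this gene.

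The alpha subunit gene unc-63 (WBGene00006797, chromosome I, 5141673 to 5149226, plus strand) had 1 conservative peak, from 5140199 to 5140518, in the intergenic region 1314 bp upstream. Its signal of 62.03 ranked 1325. The replicates gave 37.2 and 36.8, a ratio of 1.01, the closest pair among the called peaks of the 10 genes. No other gene start was nearer, so unc-63 and lev-1 were the 2 genes of the 10 that were also bound when each summit within 2000 bp of a start was given to the nearest one. By that rule 4.99% of all genes were bound.

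The other levamisole receptor genes, unc-38 (WBGene00006774, chromosome I, 4897620 to 4900974, minus strand) and unc-29 (WBGene00006765, chromosome I, 8897632 to 8901435, minus strand), had the lowest of the 10 strongest pooled signals. The strongest ranked peak of unc-38 had a signal of 34.5, with 23.04 in replicate 1 and 16.8 in replicate 2, and lay in an intron of its neighbour icmt-1, 1917 bp upstream. That of unc-29 had a signal of 35.2, with 24.3 in replicate 1 and 15.8 in replicate 2, and lay 4974 bp upstream in coding sequence of vps-13. Thus in the pooled list the strongest peak of both genes fell inside another gene. In replicate 2's own ranked list, the strongest peak of unc-38, with a signal of 21.3, lay in its own coding sequence. Of all protein-coding genes, 81.4% had a strongest ranked peak at least as high as that of unc-38 and 79.3% one as high as that of unc-29.

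The motor neuron receptor gene acr-2 (WBGene00000042, chromosome X, 6702549 to 6709308, plus strand) was the only one of the 10 with a called peak close to its start. It covered 6702140 to 6702459, was highest 249 bp before the start, and reached a signal of 69.6, above that of unc-63. The noncoding RNA genes F38B6.10, F38B6.17, F38B6.19 and F38B6.21 lay within 200 bp of this summit. It was rank 1269 of 1492 in the other pooled list and absent from the conservative one. Replicate 1 had a signal of 25.2 (rank 14831) and replicate 2 one of 40.1 (rank 1107), so here replicate 2 was the higher. The log2 ratio of replicate 1 to replicate 2 was -0.67. This was outside the range from -0.53 to 0.86 that held the middle 90% of the 1346 conservative peaks matched in both replicates. The strongest pooled peaks of unc-3 (1.22) and acr-16 (1.00) lay outside this range too, on its upper side. None of these peaks was in the conservative list, and no such range was made for ranked peaks of like signal. The irreproducible discovery rate is low, and its −log10 high, for peaks whose ranks repeat. At the acr-2 peak this −log10 was 1.10 in the pooled ranked list behind the conservative one and 2.04 in the other. The authors' threshold is 2, and peaks at or above it pass. In the first of these ranked lists 1514 peaks passed, but the conservative list holds 1431. Passing thus did not by itself place a peak in the conservative list. The unc-63 peak had 2.25 and 2.30 in these lists and the cho-1 peak 2.10 and 2.48. In the promoter, taken as the 1000 bp before a gene start and the 250 bp after it, 5.06% of all genes had a ranked signal at least as high as that of acr-2. None of the 10 genes had a conservative peak in that interval, against 4.85% of all genes.

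The muscle receptor gene acr-16 (WBGene00000055, chromosome V, 8561216 to 8564345, plus strand) had its strongest ranked peak 1562 bp upstream, with a signal of 42.1. Replicate 1 gave 31.8 and replicate 2 gave 15.9, a ratio of 2.00. Of all genes, 56.9% had a strongest peak at least as high, and of genes with windows of like length 70.7%.

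**Figure D2:**
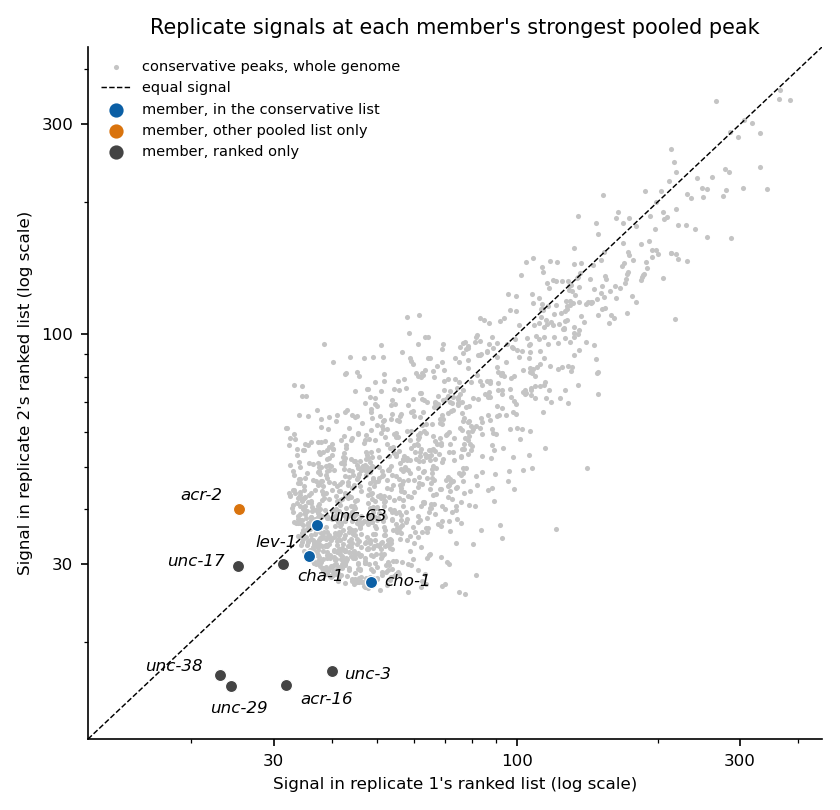
Signal of the strongest pooled peak of each of the 10 genes in replicate 1's ranked list (horizontal) and replicate 2's (vertical), both on log scales, with the conservative peaks matched in both replicates in grey. The 10 genes lie at the lower edge of the grey cloud or below it, and acr-2 lies furthest above the line of equal signal with 25.2 in replicate 1 and 40.1 in replicate 2.

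The genes that make and load acetylcholine share 1 locus. The genes unc-17 (WBGene00006756, chromosome IV, 3618259 to 3624699, minus strand) and cha-1 (WBGene00000481, chromosome IV, 3613931 to 3624697, minus strand) start within 2 bp of each other, and all 19 ranked peaks of unc-17 also lay in the window of cha-1. The strongest in the window of cha-1 was in an intron of cha-1, at 3617735 to 3618054. It lay past the end of unc-17 and so outside its window. There the pooled signal was 55.7, and the ranked lists gave 31.4 in replicate 1 and 29.95 in replicate 2. The −log10 rate of this peak, 1.65, was the closest to the threshold among the pooled ranked peaks of the 6 genes without a called peak.

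Upstream of both genes, a ranked peak with its summit 2987 bp from the start of unc-17 had a signal of 53.9, with 25.1 in replicate 1 and 29.7 in replicate 2. Another, 287 bp upstream, had 50.8, with 31.7 in replicate 1 and 17.2 in replicate 2. These replicate values differ in order, replicate 2 being higher at the first and replicate 1 at the second.

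The regulator gene unc-3 (WBGene00006743, chromosome X, 14773538 to 14783568, plus strand) had no called peak and several ranked peaks of like height. In its introns, 2896 bp and 6870 bp past the start, signals were 54.7 (39.9 in replicate 1 and 17.2 in replicate 2) and 54.0 (30.5 and 21.2). A peak 403 bp upstream had 50.6 (28.6 and 18.2). At all 3 places replicate 1 was the higher, as at most peaks of the conservative list matched in both replicates, where the median log2 ratio of replicate 1 to replicate 2 was 0.21.

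**Figure D3:**
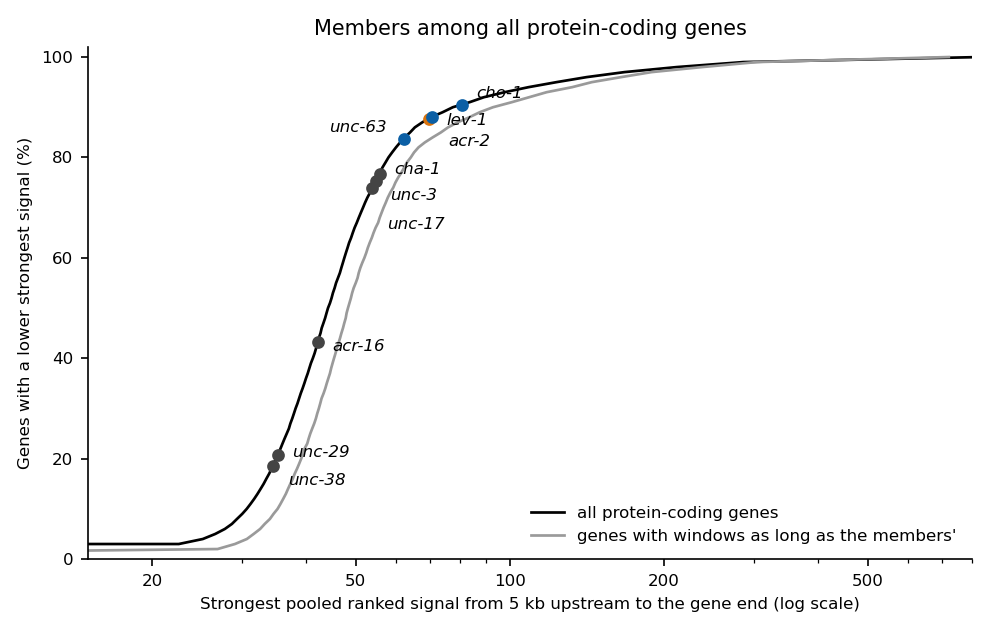
Cumulative share of genes (vertical, %) by the strongest pooled ranked signal from 5 kb upstream to the gene end (horizontal, log scale), over all protein-coding genes in black and over genes with windows as long as those of the 10 in grey; genes with no ranked peak count as 0, and the 10 genes are points on the black curve, blue where in the conservative list and orange for acr-2. The points run from unc-38 at 34.5 to cho-1 at 80.6.

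Over the 10 genes, the strongest ranked signals in order were cho-1, lev-1, acr-2, unc-63, cha-1, unc-3, unc-17, acr-16, unc-29 and unc-38. The replicate values of neighbours in this order overlapped, except those of unc-63 (37.2 and 36.8) and cha-1 (31.4 and 29.95). Compared within each replicate, acr-16 was also above unc-29 in both (31.8 against 24.3, and 15.9 against 15.8). With 2 replicates the finer order is not resolved. For example, the values of lev-1 (35.8 and 31.4) lay between those of acr-2 (25.2 and 40.1), and those of cha-1 between those of unc-3 (39.9 and 17.2). The median of the 10 pooled values was 55.2, against 44.6 over all genes and 48.5 over genes with windows of like length. In the replicates' ranked lists the medians over the 10 genes, over all genes and over genes with windows of like length were 34.9, 28.0 and 30.5 in replicate 1, and 28.5, 22.1 and 24.2 in replicate 2. Genes with no ranked peak in their window were left out of these medians. At 4 of the 10 genes, cho-1, unc-63, unc-29 and acr-16, the strongest ranked peak lay at the same place in both replicates. The same count was not made over all genes. The highest pooled signal, that of cho-1, was matched or exceeded by 9.47% of all genes and by 12.6% of genes with windows of like length.

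The ranked lists are dense, with 1.29 pooled peaks per kb of genome, so most ranked peaks are weak. The windows of the 10 genes held 142 distinct pooled ranked peaks with signals from 2.02 to 80.6. Their median was 21.8, against 21.6 over all 129095. Of the 142, 5 passed the authors' threshold (3.52%), against 1.17% of all. By position, 40 lay in intergenic sequence, 55 in introns and 47 in exons or UTRs, with median signals of 23.7, 20.3 and 23.3.

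The 5 conservative peaks at the 10 genes were weak ones of their list. All ranked from 1005 to 1431 of 1431 and lay under the median signal of 98.7. Of the 427 conservative peaks with a signal up to that of the cho-1 peak, 358 (83.8%) were in neither replicate's thresholded list, as were all 5 here. Over all conservative peaks that share was 34.4%.

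Sequence under the peaks was searched for patterns of factor families known in these neurons and for short repeats. The COE pattern (TCCC, then 2 bases of any kind, then GGGA), which reads the same on both strands, was in 0 of 5 conservative peaks of the 10 genes within 100 bp of the summit, against 0.839% of all conservative peaks and 0.0801% of windows of the same length before all gene starts. In the whole windows it was found at 2 of the 10 genes, unc-17 and cha-1, which share 1 locus. Of all genes 2.8% had the pattern, and of genes with windows of like length 3.64%. At the shared locus the pattern occurred at 2 places. They are shown with 10 bases to either side and the pattern in capitals, because the first lies under a ranked peak.
upstream of unc-17 and cha-1, chrIV:3627654-3627683, minus strand: attggaatggTCCCCGGGGAgctgtacatt
intron shared by unc-17 and cha-1, chrIV:3621916-3621945, minus strand: cctttcggtgTCCCCTGGGAcaggcgggga
The upstream match lay 17 bp from the summit of the ranked peak with a signal of 53.9, which was not called (−log10 rate 1.03). The intronic match lay 80 bp from a ranked summit with a signal of 14.7, rank 90141 of 129095. Of the 390 matches in the genome, 37.9% lay within 100 bp of a pooled ranked summit of any signal. The same share was not computed for other positions or for peaks of like signal.

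The T-box core AGGTGT, searched on both strands, was in 0 of the 5 conservative peaks, against 4.96% of all conservative peaks and 6.11% of the windows before gene starts. Of the 3 highest pooled ranked peaks of each gene, it was under that of unc-3 6870 bp past the start, that of lev-1 4382 bp past the start, that of unc-38 2869 bp upstream and that of unc-29 2261 bp upstream, none of them called. The repeat GAGAGA was in 3 of the 5, those of cho-1 (signal 80.6), unc-63 and the lev-1 intron, against 37.7% of all conservative peaks and 16.4% of the windows before gene starts. The E-box CACGTG was in 0 of the 5, against 7.2% and 4.23%. These 2 patterns were also under some of the highest ranked peaks that were not called. GAGAGA was at unc-3 6870 bp past the start, unc-17 and cha-1 2987 bp upstream, acr-2 6269 bp past the start and acr-16 3145 bp upstream. The E-box was at unc-3 6870 bp past the start and unc-38 1917 bp upstream. For the T-box core, GAGAGA and the E-box, shares over all ranked peaks were not computed. GC content was 43.3% and 48.3% under the cho-1 peaks, 50.2% at unc-63, and 30.8% upstream and 45.3% in the intron at lev-1, against a median of 44.8% over all conservative peaks.

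Other genes of the pathway were counted with the same window and list. Of 57 matched genes in 3 lists, 5 had a conservative peak (8.77%, against 11.4% of all genes and 15.1% of genes with windows as long as those of the 10). The median window of these 3 lists ran from 9586 to 11497 bp, against 7027 bp over all genes. Among 31 other acetylcholine receptor genes there was 1, acc-4, which encodes an acetylcholine-gated chloride channel. Its peak (signal 65.1) lay 4232 bp upstream in coding sequence of twk-40, whose start was nearer.

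Of 13 genes for receptor assembly and clustering and for acetylcholine breakdown, 3 had a peak. The peak of nra-2, whose product affects which subunits join a receptor, lay 221 bp upstream with a signal of 289 (163 in replicate 1 and 121 in replicate 2). That counted for lev-9, which encodes a secreted protein needed to cluster the levamisole receptor, had a signal of 430 (236 and 204) but lay in an intron of mom-1, 4822 bp upstream of lev-9. The peak of ace-4, an acetylcholinesterase gene, lay 1898 bp upstream with a signal of 97.5 (47.9 and 52.3). Of these, the nra-2 peak was the only one in both replicates' thresholded lists with the gene's own start the nearest.

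Of 13 other regulators of cholinergic fate, 1 had a peak, mab-9 itself. For comparison, 3 of 12 GABAergic identity and receptor genes had one, gbb-1 (77.7), unc-30 (76.8) and unc-25 (73.7), values in the range of cho-1 and lev-1. Of 24 pan-neuronal and synaptic vesicle genes 12 had one, with the highest signals at egl-21 (204, at the start of ced-5), unc-64 (117) and cab-1 (112). These lists were set with earlier results known, and the differences between them were not tested.

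**Figure D4:**
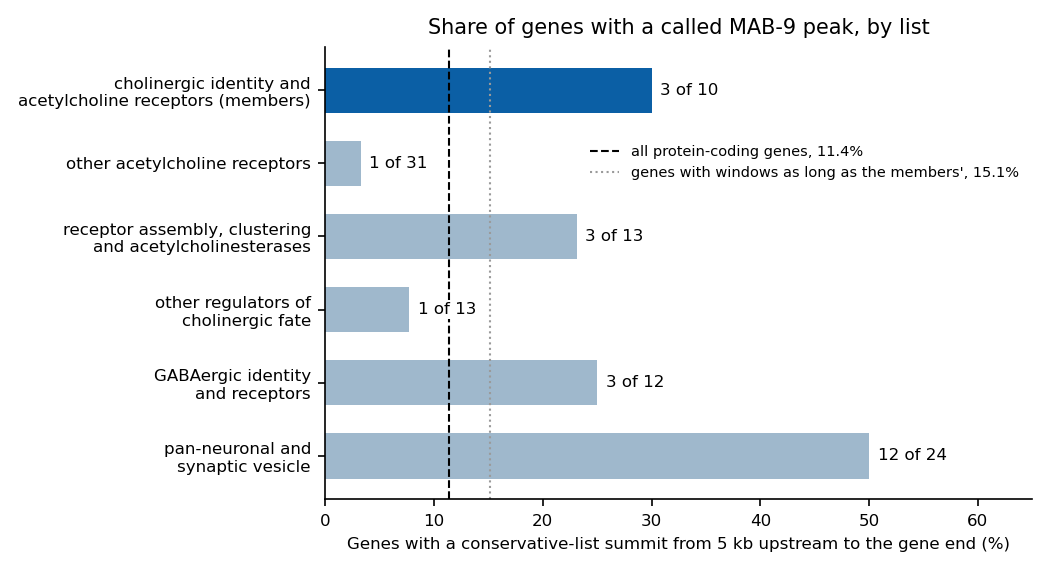
Share of genes in each list with a conservative-list summit from 5 kb upstream to the gene end (%), with counts beside the bars and the shares over all protein-coding genes (11.4%) and over genes with windows as long as those of the 10 (15.1%) as vertical lines. The 10 genes stand at 3 of 10, the other acetylcholine receptor genes at 1 of 31 and the pan-neuronal genes at 12 of 24.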

How the data were processed

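Whole L1 larvae of 1 group were profiled in 2 replicates by anti-GFP immunoprecipitation of tagged MAB-9. Coordinates in the deposited lists are ce11, per the labels. The file headers name, as inputs, alignment files of both replicates and of a control. No aligner or peak caller is named, so both are not given in the sources used here. For each peak the authors deposited a signal, whose scale is unstated, and a score that follows the irreproducible discovery rate. In the deposited ranked lists a further column gives this rate as its −log10, and the authors' threshold was a rate of 0.01. No file used gives reads, so the depth per replicate is unknown.

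Genes came from Ensembl release 115 and sequence from RefSeq WBcel235, whose chromosomes held every peak. A peak counted at a gene by its summit. Replicate values came from the peak with the highest signal in each replicate's ranked list where the overlap was at least 50% of the shorter of the pair. The members, lists and alternatives were chosen with earlier results of these data known. All 10 genes are named, with the genes whose starts are nearest to their called peaks or that hold their summits, and up to 3 genes of each other list with the highest signal; genes holding or nearest to ranked peaks and noncoding genes near called peaks were named after their values were seen. The names acr-22 and unc-74 matched no gene. There was 1 group, so no test was made, and nothing says whether the spread between replicates includes separate cultures beyond their separate biosamples. Counting was tested on simulated data. Python 3.11.15, NumPy 2.4.6, pandas 2.3.3 and matplotlib 3.10.9 were used.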

Additional observations from a re-analysis of the deposited data

How the results depend on the processing

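Of the 10 genes, 3 had a conservative peak in the main count. With the summit within 1000 bp upstream to 250 bp downstream of the start, 0 had one, against 4.85% of all genes. With peaks at or above the median signal, 0 had one. At that signal the share over all genes was not computed. A single replicate was used by taking its own thresholded list, of 824 peaks for replicate 1 and 869 for replicate 2. In each of these lists 0 of the 10 genes had a peak, against 7.34% of all genes for replicate 1 and 7.8% for replicate 2. The count was 4 in the other pooled list (against 11.7% of all genes), 2 from 2000 bp upstream (against 7.75%) or by nearest start (against 4.99%), and 3 by any overlap or without weaker overlapping peaks. Of the 57 other pathway genes, 5 had a peak. The count was 3 at or above the median signal. It was 3 from 2000 bp upstream (against 7.75% of all genes) and 3 by nearest start (against 4.99%). It was 2 within 1000 bp upstream to 250 bp downstream (against 4.85%). In the replicates' own thresholded lists it was 2 for replicate 1 (against 7.34%) and 5 for replicate 2 (against 7.8%). No conservative peak of the 10 genes was in both replicates' thresholded lists at an overlap of 1 bp, 50% or 80%. Those lists held no peak at the 10 genes, so the overlap setting could not change this. None of the conservative peaks of the 10 genes held the COE pattern within 50, 100 or 250 bp of the summit. The strongest signal was the same in both pooled lists. In the replicates' own lists the 10 genes had no peak, so the strongest signal and the pattern could not be recomputed there. No paired analysis was possible because there was 1 group. Depth is unknown, so whether deeper libraries would call more of these peaks was not tested.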
